A study of Mus musculus with 40 samples.

Results

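The genes described here are 10 genes of the unfolded protein response, measured in mouse bone marrow-derived macrophages, which are macrophages grown from bone marrow in L929 cell-conditioned medium. They are Herpud1, Hspa5, Ddit3, Xbp1, Atf4, Dnajb9, Sdf2l1, Creld2, Hsp90b1 and Pdia4, 10 of the 57010 gene identifiers counted. They were picked by symbol as endoplasmic reticulum (ER) stress genes, and the choice also used a measured value, the lower Herpud1 level in knock-out cells at 6 h. For that reason every difference between the genotypes at 6 h is given as a description, with no test, and so are the changes of Herpud1 into and out of 6 h in knock-out cells. The libraries of the other genotype at 6 h were the other side of that comparison. Tests of Herpud1 that use them are therefore not independent of the choice.

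The cells came from OtulinFL/FL mice, called WT here because both Otulin alleles are intact apart from the loxP sites, and from OtulinFL/FL LysMCreTg/WT mice, called KO, in which Cre recombinase is expressed from the LysM promoter of myeloid cells. Otulin is a deubiquitinase that removes linear ubiquitin chains. Cells of each genotype were collected before stimulation (0 h) and at 3, 6, 12 and 24 h of 500 ng/ml ultrapure lipopolysaccharide (LPS) of Salmonella minnesota, which signals through Toll-like receptor 4. There were 4 biological replicates for each of the 10 groups, and the design has no group with Cre and intact Otulin, so loss of Otulin and presence of Cre cannot be told apart. No group was kept without LPS to 3, 6, 12 or 24 h, so LPS and time in culture cannot be told apart either. Changes from 0 h are called the response to LPS here. The sources used here give neither the ages of the mice nor whether all replicates were separate cultures, so the p-values measure the spread between these samples.

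When unfolded proteins build up in the ER, they occupy Hspa5 (BiP), the Hsp70 chaperone of that compartment, and the sensors IRE1, PERK and ATF6 become active. IRE1 splices Xbp1 mRNA into the form that encodes an active transcription factor, PERK phosphorylates eIF2 alpha and so favours translation of Atf4, and ATF6 is cut to release a transcription factor. The genes they induce encode chaperones, disulfide isomerases and parts of ER-associated degradation (ERAD), the route that exports misfolded proteins to the proteasome. In macrophages, Toll-like receptor signalling is known to engage IRE1 and XBP1 and to hold back the ATF4 and CHOP branch.

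Promoters of 4 of the 10 genes hold a sequence that matches an ER stress or amino acid response motif. Any of the 4 motifs searched was present in 560 of 32851 promoters (1.7%). The stretches are shown because they are sequence features that some of these genes share. The windows, taken from RefSeq promoters of GRCm38.p6 (250 bases before to 50 after each start site, all 10 genes matched by symbol), run 5′ to 3′ on the gene's own strand, with matched motif letters in capitals and motif positions that allow any base in lower case.
Herpud1 (chr8:94386297-94386407, plus strand): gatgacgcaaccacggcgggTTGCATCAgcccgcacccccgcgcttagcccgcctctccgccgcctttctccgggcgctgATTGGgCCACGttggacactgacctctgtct
Hspa5 (chr2:34772005-34772063, plus strand): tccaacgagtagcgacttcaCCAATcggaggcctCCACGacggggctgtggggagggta
Creld2 (chr15:88819500-88819558, plus strand): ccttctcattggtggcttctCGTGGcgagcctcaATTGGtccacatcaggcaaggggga
Hsp90b1 (chr10:86705513-86705676, minus strand): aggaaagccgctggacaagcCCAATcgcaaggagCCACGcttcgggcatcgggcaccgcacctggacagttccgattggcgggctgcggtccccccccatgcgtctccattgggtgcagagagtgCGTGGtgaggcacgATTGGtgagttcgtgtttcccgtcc
The ER stress element, searched as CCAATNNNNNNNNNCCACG on both strands, is the site that ATF6 and NF-Y are known to bind. It was present in 39 of 32851 promoters of this length (0.119%) and in 3 of the 10 genes. Its first base lay at -65 from the start site of Hspa5, at -126 on the opposite strand of Creld2, and at -212 and, on the opposite strand, -107 of Hsp90b1. The second form, ERSE-II (ATTGGNCCACG), was present in 12 promoters (0.0365%), among them Herpud1 at -52. Herpud1 also held the core shared by C/EBP and ATF composite sites, TGATGCAA, on the opposite strand at -112. That core was present in 0.895% of promoters, and the core TGACGTGG of the XBP1 site was present in 0.676% and in 0 of the 10 genes. No match overlapped another, and a match is only a run of letters in this window.

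Library totals ranged from 3615155 to 6829303 counts, with a median of 4471933, and the lowest count of any of the 10 genes in any library was 16. Levels are CPM, the counts of a gene per 1000000 counts of the library after TMM scaling. The libraries were made from 3′ ends, so the level of a gene does not depend on its length in the way of whole-transcript data. The targeted gene, Otulin, did not differ in 1 direction. It was lower in KO without overlap at 3 h (31.4 to 33.5 CPM in KO, 36.4 to 47.5 in WT) and at 6 h (29.0 to 33.5 and 35.7 to 42.3), and higher in KO without overlap at 24 h (45.2 to 51.7 and 27.6 to 37.1). The ranges overlapped at 0 h (30.4 to 43.6 and 38.1 to 44.6) and 12 h (27.6 to 36.7 and 30.3 to 34.5). The sources used here do not name the deleted exons, and a 3′ tag outside them checks nothing. Of 8 macrophage markers, Lyz2 (1591 to 3605 CPM), Adgre1, Csf1r, Cd68 and Itgam were at 339 CPM or more in all 40 libraries. The others were lower in some libraries, with Fcgr1 at 24.4 to 776 CPM, Mertk at 65.4 to 412 and Cd14 at 106 to 704. Markers of other cells ranged from 0 to well above it. Among neutrophil markers S100a8 lay at 11.0 to 43.0 CPM and S100a9 at 3.59 to 28.9, while Ly6g had 3 counts over all libraries. The plasma cell marker Sdc1 lay at 6.00 to 72.3 CPM, while Mzb1 had 3 counts. The monocyte markers Vcan and Ccr2 reached 353 and 81.6 CPM. The mast cell and basophil marker Fcer1a had 0 counts. In every library numbered KO 3 and WT 4 Xist stayed below 5 CPM, whereas it was at least 227 CPM in the others. As these are bulk libraries, fewer cells of a type and less RNA per cell cannot be told apart.

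**Figure D1:**
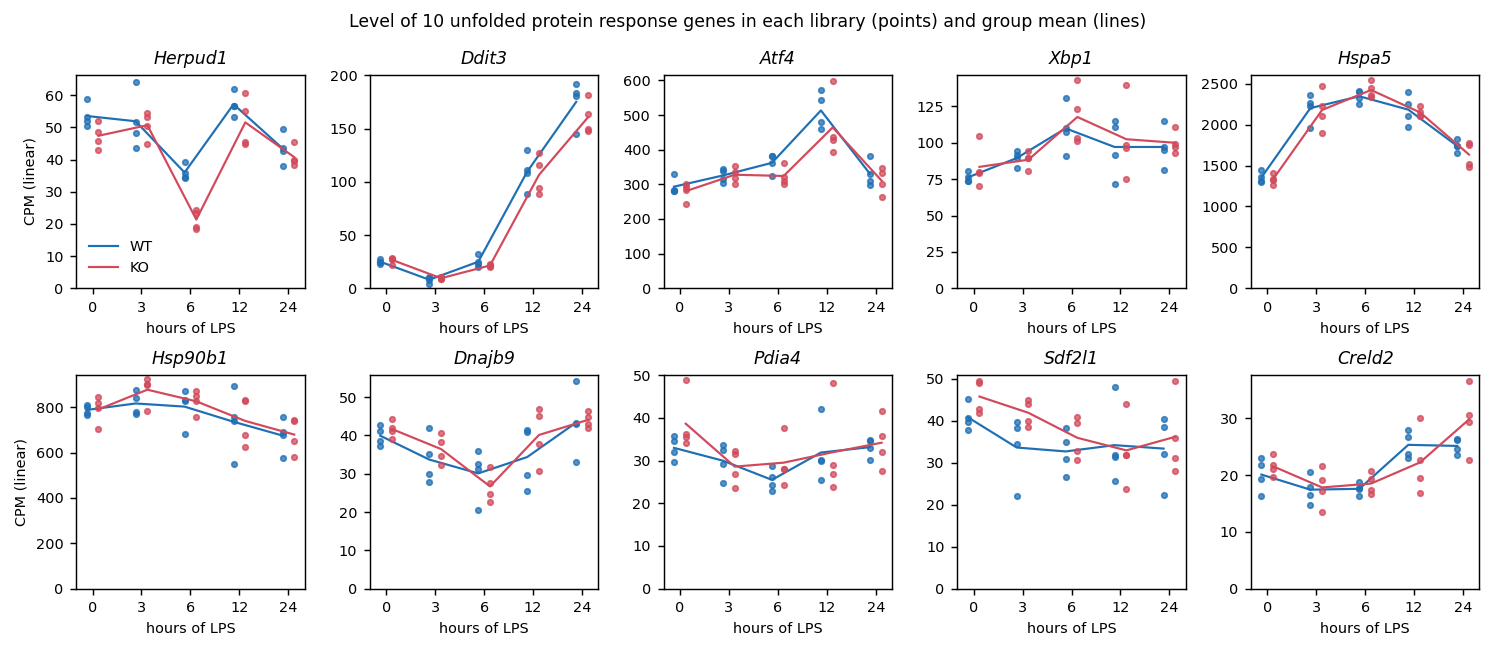
Level of each of the 10 genes in CPM (linear axis from 0) against hours of LPS, with 1 point per library, WT in blue and KO in red, and lines through the means of 4 libraries. Ddit3 dips at 3 h and climbs to means of 175 (WT) and 161 (KO) CPM at 24 h, Hspa5 peaks at 6 h, and the KO points of Herpud1 at 6 h lie below all others.

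The 3 transcription factor genes moved on different schedules over the hours of LPS. Ddit3, which encodes CHOP, fell early and then rose far above its starting level in both genotypes. Atf4, the factor upstream of it, had its highest mean at 12 h and fell by 24 h. Xbp1 was higher at 6 h in both genotypes.

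In WT cells Ddit3 was at 24.8, 27.4, 22.6 and 24.7 CPM before LPS and at 9.36, 7.76, 10.7 and 4.28 CPM at 3 h. By 12 h it had reached 89.0, 129.8, 108 and 111 CPM, and at 24 h it stood at 145, 191, 180.4 and 184 CPM. The libraries of 3 h all lay below those of 0 h, and those of 12 and 24 h all lay above them and apart from each other. The change from 0 h was -1.63 ± 0.19 (SE, adjusted p = 1.7e-07) at 3 h, 2.13 ± 0.14 (SE, adjusted p = 5.48e-12) at 12 h and 2.81 ± 0.14 (SE, adjusted p = 3.36e-14) at 24 h, a 7.03-fold rise. These are log2 fold changes with standard errors (SE) from edgeR's quasi-likelihood test, with p-values adjusted by Benjamini-Hochberg over all genes tested and a threshold of 0.05.

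Ddit3 fell and rose at the same times in KO cells. Its levels were 27.9, 28.5, 27.9 and 22.0 CPM at 0 h, 8.26, 10.7, 10.2 and 8.36 at 3 h, 94.5, 88.3, 127 and 116 at 12 h and 182, 148, 163 and 149.6 at 24 h. The libraries again separated in the order 3, 0, 12 and 24 h. Against 0 h the log2 changes were -1.51 ± 0.14 (SE, adjusted p = 1.94e-09) at 3 h, 1.98 ± 0.12 (SE, adjusted p = 1.85e-13) at 12 h and 2.59 ± 0.12 (SE, adjusted p = 1.12e-15) at 24 h. At 6 h the Ddit3 libraries overlapped those of 0 h and lay between those of 3 and 12 h. Its WT libraries were at 22.5, 25.0, 19.8 and 32.2 CPM (-0.0019 ± 0.16 SE, adjusted p = 0.993) and its KO libraries at 20.2, 22.1, 20.7 and 22.6 CPM (-0.34 ± 0.13 SE, adjusted p = 0.0289). The KO call at 6 h was lost under DESeq2, under its scaling, in 1 fit of all 40 libraries and without KO replicate 1, 2 or 3. Ddit3 lies across from Mars on the opposite strand, a gene at a mean of 34.4 CPM, and the sources used here do not give the strand setting of the counting, so reads of the pair may not be fully separable.

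Atf4 encodes the factor whose translation PERK and the other eIF2 alpha kinases favour, and its mean mRNA level was highest at 12 h in both genotypes. WT libraries stood at 281, 283, 329 and 281 CPM at 0 h and 479, 572, 459.6 and 543 CPM at 12 h. KO libraries stood at 243, 292, 301 and 285 CPM at 0 h and 427, 394, 599 and 438 CPM at 12 h. All 12 h libraries were above all 0 h libraries of their genotype, by 0.80 ± 0.09 (SE, adjusted p = 5.89e-09) in WT and 0.71 ± 0.11 (SE, adjusted p = 5.53e-06) in KO on the log2 scale. From 12 to 24 h Atf4 fell in WT (-0.63 ± 0.09 SE, adjusted p = 2.15e-06) and in KO (-0.56 ± 0.11 SE, adjusted p = 0.00035). Ddit3 rose over that same step, by 0.68 ± 0.13 (SE, adjusted p = 0.0002) in WT and 0.61 ± 0.11 (SE, adjusted p = 8.79e-05) in KO. At 6 h Atf4 had risen in WT (0.30 ± 0.09 SE, adjusted p = 0.00348), and the KO value was 0.19 ± 0.11 (SE, adjusted p = 0.14), which passed the threshold under DESeq2 and its scaling. Against 0 h, Atf4 at 24 h was not called by edgeR in WT (adjusted p = 0.0788) or KO (adjusted p = 0.247). The WT value at 24 h was positive in every alternative, from 0.13 to 0.28, and passed the threshold in 3 of 9.

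Xbp1 is counted here as total mRNA, since a 3′ tag does not tell the spliced form from the unspliced one. WT libraries were at 80.8, 73.4, 76.5 and 73.9 CPM at 0 h and 110.2, 108, 131 and 91.2 CPM at 6 h. KO libraries were at 105, 70.1, 79.0 and 79.9 CPM and 123, 102, 103 and 143 CPM. The WT libraries of 6 h were all above those of 0 h, whereas the KO ranges touched through 1 unstimulated library at 105 CPM. The rise at 6 h was 0.52 ± 0.12 (SE, adjusted p = 0.000556) in WT and 0.48 ± 0.15 (SE, adjusted p = 0.00573) in KO on the log2 scale. In WT Xbp1 was also higher at 12 h (0.35 ± 0.12 SE, adjusted p = 0.0129) and 24 h (0.35 ± 0.12 SE, adjusted p = 0.013), but the 12 h call was lost without WT replicate 1 or 3 and the 24 h call without WT replicate 1. The KO values at those times, 0.28 ± 0.15 (SE, adjusted p = 0.0966) and 0.26 ± 0.14 (SE, adjusted p = 0.112), missed the threshold. The 12 h value passed it under DESeq2, under its scaling, with no filter on low counts and without KO replicate 1 or 3, and the 24 h value with no filter and without KO replicate 1. Both also passed with the replicate number as a block in edgeR's fit (adjusted p = 0.0468 and 0.0450).

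**Figure D2:**
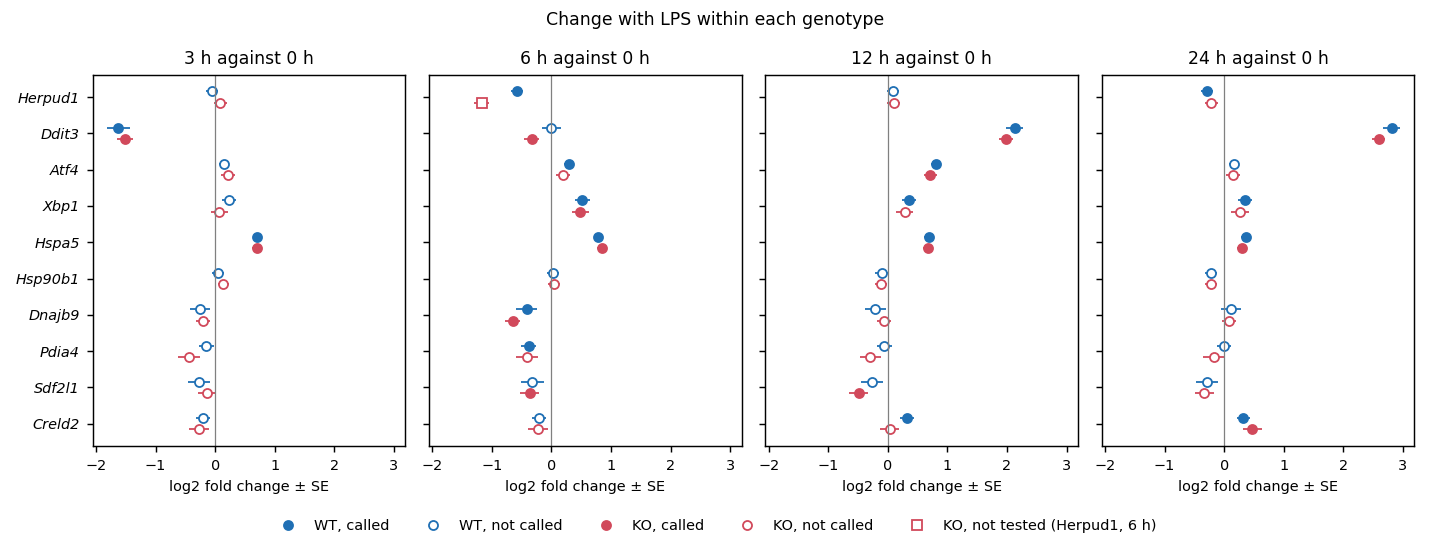
Log2 fold change against 0 h (points) with SE (bars) for each gene at 3, 6, 12 and 24 h of LPS, WT in blue and KO in red, filled where the adjusted p of edgeR's quasi-likelihood test was under 0.05, with the untested KO value of Herpud1 at 6 h as an open square. Ddit3 spans -1.63 at 3 h to 2.81 at 24 h in WT, Hspa5 is filled on the right in all panels, and Herpud1 lies on the left at 6 h in both genotypes.

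Among the chaperones, Hspa5 stood apart from the rest. It was the only 1 of the 10 genes called higher at all 4 times in both genotypes. Hsp90b1 (GRP94), the Hsp90 of the ER that folds Toll-like receptors and integrins, was called at none in the reported fits, which hold no replicate block. The other 4, Dnajb9, Pdia4, Sdf2l1 and Creld2, had changes of less than 1 log2 unit at every time.

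Hspa5 rose in WT from 1314, 1298, 1447 and 1357 CPM at 0 h to 2225, 1965, 2260.3 and 2360.0 CPM at 3 h and 2247, 2406, 2407 and 2329 CPM at 6 h. In KO it rose from 1264, 1327, 1334 and 1412 CPM to 2111, 2477, 1899 and 2232 CPM and 2336, 2549, 2447 and 2365 CPM. Every stimulated library of either genotype, at any time, lay above every unstimulated one. At 6 h the log2 change was 0.79 ± 0.07 (SE, adjusted p = 3e-10) in WT and 0.84 ± 0.08 (SE, adjusted p = 2.04e-09) in KO. At 24 h it had declined to 0.36 ± 0.07 (SE, adjusted p = 8.33e-05) in WT, with libraries at 1824, 1743, 1652 and 1738 CPM, and to 0.29 ± 0.08 (SE, adjusted p = 0.00295) in KO, at 1515, 1781, 1487 and 1754 CPM. The fall from 12 to 24 h passed the test in WT (-0.33 ± 0.07 SE, adjusted p = 0.000734) and in KO (-0.38 ± 0.08 SE, adjusted p = 0.000721).

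Hsp90b1 ranged over 764 to 812 CPM in WT and 705 to 845 in KO at 0 h, and over 681 to 869.9 and 756 to 872 at 6 h, so these 2 times overlapped. At 24 h its WT libraries, at 578 to 755 CPM, all lay below those of 0 h. Its KO libraries of 24 h, at 582 to 744 CPM, overlapped those of 0 h. Its largest value against 0 h was at 24 h, -0.23 ± 0.10 (SE, adjusted p = 0.0577) in WT and -0.22 ± 0.10 (SE, adjusted p = 0.0574) in KO, just outside the threshold. The WT value passed it with no filter on low counts and without WT replicate 1. Both values passed with the replicate number as a block in edgeR's fit (adjusted p = 0.0109 in WT and 0.0374 in KO). The promoters of Hspa5 and Hsp90b1 printed above both carry ER stress elements, and the ratio of their transcripts changed. Within a library, the ratio of Hspa5 to Hsp90b1 counts went from a mean of 1.72 ± 0.0721 at 0 h to 2.7 ± 0.181 at 3 h and 3.04 ± 0.584 at 12 h in WT (SD, n = 4). In KO the ratio went from 1.69 ± 0.0688 to 2.48 ± 0.142 and 2.96 ± 0.493. The ranges at 0 h did not overlap those of any later time in either genotype. The ratio alone does not say which gene moved. By their CPM, Hspa5 was higher at every later time. Hsp90b1 had no call in the reported fits and overlapped its 0 h range at 6 h, but lay below it at 24 h in WT.

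Dnajb9 (ERdj4), a J-domain partner of Hspa5 that also restrains IRE1, had its lowest mean level at 6 h in both genotypes. Its WT libraries were at 37.3, 41.1, 38.6 and 42.8 CPM at 0 h and 31.2, 35.9, 32.6 and 20.6 CPM at 6 h. The KO libraries were at 44.4, 39.2, 41.9 and 41.2 CPM and 31.7, 24.8, 22.7 and 27.6 CPM, and in both genotypes the 6 h libraries were all below those of 0 h. The log2 change was -0.41 ± 0.17 (SE, adjusted p = 0.0409) in WT and -0.65 ± 0.12 (SE, adjusted p = 6.35e-05) in KO. The WT call was lost under DESeq2, under its scaling, and without WT replicate 2, 3 or 4, where it ranged from -0.47 to -0.23. By 12 h Dnajb9 had risen again in KO (0.58 ± 0.13 SE, adjusted p = 0.00058), and the WT value for that step was 0.21 ± 0.18 (SE, adjusted p = 0.38).

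Pdia4 (ERp72) is a disulfide isomerase. In WT it fell from 35.8, 32.0, 34.5 and 29.7 CPM at 0 h to 24.2, 22.9, 28.7 and 26.2 CPM at 6 h, all libraries of 6 h lying below those of 0 h (-0.38 ± 0.13 SE, adjusted p = 0.0098), a call lost without WT replicate 1. KO libraries at 0 h were at 34.1 to 36.1 CPM, except replicate 1 at 48.8 CPM. At 3 h they were at 23.6 to 32.3 CPM, all below those of 0 h (edgeR adjusted p = 0.0524). This 3 h change was called in 4 of 9 alternatives. KO libraries at 6 h were at 24.3, 28.1, 28.1 and 37.5 CPM (-0.41 ± 0.19 SE, adjusted p = 0.0603). The 6 h value ran from -0.58 to -0.14 over the alternatives. It passed the threshold with no filter on low counts, in 1 fit of all 40 libraries, without KO replicate 4 and with the replicate number as a block. From 6 to 12 h the WT value was 0.32 ± 0.13 (SE, adjusted p = 0.0477), a call lost in 6 alternatives, among them the fit without WT replicate 2 (0.13).

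Sdf2l1 encodes an ER-resident partner of Hspa5. It was at 37.8 to 45.1 CPM in unstimulated WT and 41.7 to 49.5 CPM in unstimulated KO libraries. Its KO level was lower at 6 h (-0.36 ± 0.16 SE, adjusted p = 0.0499) and at 12 h (-0.49 ± 0.16 SE, adjusted p = 0.00915). The first call sat at the threshold and was lost under DESeq2, under its scaling, in 1 fit of all 40 libraries and without KO replicate 1 or 2, and the second was lost without KO replicate 1 or 2. In WT the log2 change of Sdf2l1 lay between -0.32 and -0.27 at all 4 times with no call, though the 6 h value passed the threshold with no filter on low counts and the 12 h value without WT replicate 1. With the replicate number as a block in edgeR's fit, the WT value passed at all 4 times (adjusted p = 0.0407 at 3 h, 0.0174 at 6 h, 0.0354 at 12 h and 0.0241 at 24 h).

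Creld2 encodes an ER protein with disulfide isomerase activity that is secreted under ER stress. It was late in both genotypes. WT libraries went from 21.7, 16.3, 19.4 and 23.0 CPM at 0 h to 26.4, 24.5, 26.2 and 23.5 CPM at 24 h, without overlap. KO libraries went from 23.7, 19.6, 21.8 and 21.1 CPM to 29.4, 30.6, 22.7 and 36.5 CPM, with 1 library of 24 h inside the range of 0 h. The rise was 0.32 ± 0.11 (SE, adjusted p = 0.0133) in WT and 0.47 ± 0.16 (SE, adjusted p = 0.0105) in KO at 24 h, and 0.32 ± 0.11 (SE, adjusted p = 0.0151) in WT at 12 h. These calls were not firm. Both WT calls were lost with no filter on low counts, the 12 h call also without WT replicate 2 and the 24 h call without WT replicate 3, and the KO call was lost without KO replicate 2 or 4. From 12 to 24 h the KO level rose (0.44 ± 0.16 SE, adjusted p = 0.0335), a call that DESeq2 and the fits without KO replicate 1, 2 or 3 did not make.

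Herpud1, a membrane protein that organises the HRD1 ubiquitin ligase complex of ERAD, had a trough at 6 h in both genotypes. The ERSE-II and C/EBP-ATF matches printed above are in its promoter. WT libraries stood at 51.9, 50.3, 53.2 and 58.7 CPM at 0 h, 64.1, 48.2, 51.6 and 43.6 at 3 h and 34.7, 34.4, 35.7 and 39.1 at 6 h. The later values were 62.0, 53.2, 56.7 and 56.7 CPM for 12 h and 42.8, 43.7, 49.4 and 38 for 24 h. At 6 h every WT library was below those of 0, 3 and 12 h. The fall was -0.58 ± 0.10 (SE, adjusted p = 2.45e-05) from 0 h and -0.53 ± 0.11 (SE, adjusted p = 0.000214) from 3 h, and the return by 12 h was 0.67 ± 0.11 (SE, adjusted p = 1.25e-05), all on the log2 scale. The WT libraries of 6 h were part of the comparison that chose Herpud1, so these p-values are not independent of that choice. At 24 h Herpud1 was lower again (-0.30 ± 0.10 SE against 0 h, adjusted p = 0.0112), a call lost without WT replicate 2 (-0.28) or 4 (-0.19).

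KO libraries of Herpud1 stood at 42.9, 52.0, 48.6 and 45.9 CPM at 0 h, 44.8, 53.1, 54.4 and 50.4 at 3 h and 19.1, 24.5, 18.4 and 23.5 at 6 h. The later values were 44.9, 45.6, 55.1 and 60.6 CPM for 12 h and 39.5, 38.2, 45.4 and 39.9 for 24 h. The 4 libraries of 6 h lay below all others of either genotype. The log2 change was -1.17 ± 0.12 (SE) from 0 h and -1.26 ± 0.12 (SE) from 3 h, and 1.28 ± 0.12 (SE) from 6 to 12 h. These values carry no test, since the 6 h KO libraries entered the choice of these genes. From 12 to 24 h it fell by 0.32 on the log2 scale (adjusted p = 0.0268), a call lost with no filter on low counts and without KO replicate 2, 3 or 4. In order of mean level, the groups ran WT 12 h, WT 0 h, WT 3 h, KO 12 h, KO 3 h, KO 0 h, WT 24 h, KO 24 h, WT 6 h and KO 6 h. Neighbours in that order overlapped in their libraries, except the last pair.

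Herpud1 and Hspa5 moved in opposite directions at 6 h. The ratio of their counts within a library was 0.0396 ± 0.00272 in WT and 0.0355 ± 0.00295 in KO at 0 h (SD, n = 4). At 6 h it was 0.0153 ± 0.00107 in WT and 0.00880 ± 0.00115 in KO. At 24 h the means had come back only to 0.0251 ± 0.00349 and 0.0252 ± 0.00405. The other ratio that changed by a large factor was Ddit3 to Atf4, which went from 0.0855 ± 0.0118 at 0 h to 0.0243 ± 0.00732 at 3 h and 0.532 ± 0.0600 at 24 h in WT. In KO it went from 0.0956 ± 0.0154 to 0.0287 ± 0.00322 and 0.519 ± 0.0426. These ratios are descriptions with no test.

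**Figure D3:**
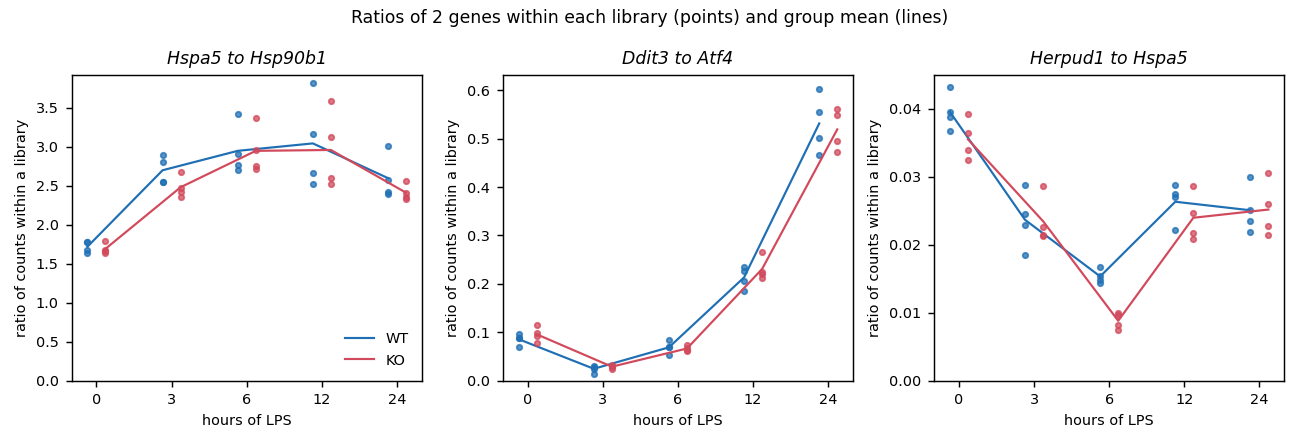
Ratio of the counts of 2 genes within each library (points, linear axis from 0) with lines through the means of 4 libraries, WT in blue and KO in red, against hours of LPS. Hspa5 to Hsp90b1 leaves a mean of 1.72 (WT) at 0 h, Ddit3 to Atf4 reaches 0.532 (WT) and 0.519 (KO) at 24 h, and Herpud1 to Hspa5 is lowest at 6 h.

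Counted over the 10 genes, the response to LPS went both ways, and its counts are set beside the share of all genes called. At 3 h 1 gene was higher and 1 lower in WT, where 26.6% of 12151 genes were higher and 28% lower. At 6 h 3 were higher and 3 lower (31% and 37.1% of all genes). The 3 lower include Herpud1, whose WT test at 6 h is not independent of the choice of genes. At 12 h 5 were higher and 0 lower (32.3% and 35.9%), and at 24 h 4 were higher and 1 lower (34.5% and 35.4%). In KO, of 12037 genes, the counts at 3 h were 1 higher and 1 lower (22.9% and 25.7% of all genes) and at 6 h 2 higher and 4 lower, Herpud1 included in the latter by the values that chose it (28.7% and 36%). At 12 h they were 3 higher and 1 lower (30.7% and 34%) and at 24 h 3 higher and 0 lower (32.8% and 33%). The median log2 change of the 10 genes at 6 h was -0.10 in WT and -0.28 in KO, beside medians of -0.09 and -0.11 over all genes. At 24 h it was 0.14 and 0.12, beside -0.02 and -0.01. All 10 passed the filter on low counts in every fit.

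Between successive times the counts were as follows. Those of KO into and out of 6 h include Herpud1 by values that entered the choice of genes, which carry no test. Those of WT into and out of 6 h include Herpud1 by tests that are not independent of that choice. From 3 to 6 h 2 genes were called in WT and 4 in KO, where 42.3% and 40.6% of all genes were called. From 6 to 12 h 5 were called in WT and 4 in KO, all higher (45.6% and 44.8% of all genes in either direction). Ddit3 and Atf4 were among them in both. Herpud1 was called in WT, and the KO count includes it by its untested value. From 12 to 24 h 4 were called in WT and 5 in KO (39.6% and 36.9%). Without KO replicate 2 or 3 the KO count was 3. Hspa5, Atf4 and Herpud1 fell and Ddit3 rose over this step in both genotypes, and Creld2 rose in KO.

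No genotype difference was called for these genes outside 6 h. At 0, 3, 12 and 24 h 0 of the 10 were called between KO and WT by edgeR, 0 showed p under 0.05 before adjustment, and the count by DESeq2 was 0 too. Over all genes the share called was 0% at 0 h, 0.689% at 3 h, 0.0464% at 12 h and 0.0809% at 24 h, and 0 of 10 lies at that background. The log2 differences, KO minus WT, ran from -0.18 (Herpud1) to 0.22 (Pdia4) at 0 h and from -0.04 (Pdia4) to 0.30 (Sdf2l1) at 3 h. They ran from -0.20 (Creld2) to 0.20 (Dnajb9) at 12 h and from -0.13 (Ddit3) to 0.24 (Creld2) at 24 h. Herpud1 had -0.18 ± 0.09 (SE, adjusted p = 0.644) at 0 h, -0.03 ± 0.11 (SE, adjusted p = 0.948) at 3 h, -0.17 ± 0.12 (SE, adjusted p = 0.802) at 12 h and -0.10 ± 0.10 (SE, adjusted p = 0.865) at 24 h. A p above the threshold does not show that the genotypes were alike.

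At 6 h, the time that entered the choice of genes, the KO libraries of Herpud1 had a mean of 21.3 ± 3.06 CPM, against 36 ± 2.17 for the WT libraries (SD, n = 4). The log2 difference was -0.78 ± 0.12 (SE), and the ranges did not overlap. Over the 10518 genes tested between the genotypes at 6 h, 1.01% were called, which is given as background only. Next to it stood Ddit3 (-0.24 ± 0.15 SE), Atf4 (-0.18 ± 0.08 SE) and Dnajb9 (-0.18 ± 0.16 SE), and at the other end Pdia4 (0.20 ± 0.14 SE). Hspa5, whose libraries of that time are given above, differed by 0.03 ± 0.06 (SE). Without KO replicate 3 and WT replicate 4, the libraries low in Xist, the Herpud1 difference was -0.67, and over all alternatives that leave out 1 library it lay between -0.84 and -0.71.

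The summed levels of some marker lists were also apart between the genotypes, at 6 h and at other times. The summed level of 8 neutrophil markers was 57.1 to 75.5 CPM over WT libraries and 29.9 to 54.1 over KO libraries, nearly all of it S100a8 and S100a9. That of 8 macrophage markers was 6279 to 6712 CPM over WT libraries and 5738 to 6151 over KO libraries. The 9 plasma and B cell markers summed to 16.5 to 21.4 CPM over WT libraries and 28.7 to 35.3 over KO libraries, mostly Sdc1. The sums of 6 monocyte markers overlapped at 6 h (358 to 447 CPM over WT libraries and 394 to 423 over KO libraries). Markers of T and NK cells, mast cells and basophils summed to under 1 CPM in each library at 6 h. The neutrophil sums were apart at 3 h as well, at 55.5 to 67.3 CPM over WT libraries and 29.2 to 42.4 over KO libraries, when Herpud1 differed by -0.03 ± 0.11 (SE), and at 24 h, at 31.5 to 44.2 and 18.2 to 25.9. Macrophage sums were apart at 24 h (5992 to 7686 CPM in WT and 5523 to 5963 in KO) and monocyte sums at 3 h (128 to 152 and 86.2 to 95.6). Plasma and B cell sums were apart at 12 h (49.9 to 64.6 and 65.2 to 72.8) and 24 h (43.7 to 49.6 and 50.6 to 67.7). Stromal and endothelial sums, below 5 CPM, were apart at 3 h (2.97 to 4.28 and 1.67 to 2.74). Their part in the Herpud1 difference was not tested.

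Whether the LPS response itself differed between the genotypes was tested as an interaction at 3, 12 and 24 h, in fits of 16 libraries. None of the 10 genes was called by edgeR, 0 showed p under 0.05 before adjustment, and the smallest adjusted p was 1.0 at each time to 2 digits, where 0%, 0% and 0.00818% of all genes were called. The interaction of Herpud1 at 6 h was -0.59 ± 0.15 (SE), given as a description.

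**Figure D4:**
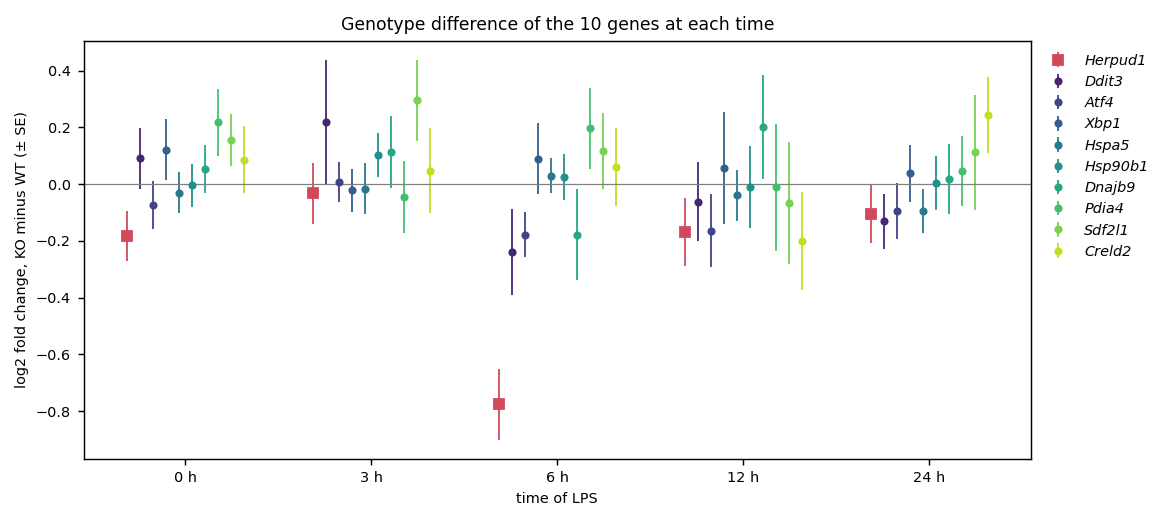
Log2 difference, KO minus WT, of the 10 genes with SE (bars) at each time of LPS, Herpud1 as a red square. All values at 0, 3, 12 and 24 h lie within 0.30 of 0, and Herpud1 lies at -0.78 at 6 h.

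The other genes of the pathway were taken from 6 lists, and their changes are log2 fold changes of 6 h against 0 h in WT unless another comparison is named. Of 7 ER stress sensors and their partners, 1 was higher and 4 lower in WT at 6 h, with a median log2 change of -0.37, where 31% of all genes were higher and 37.1% lower. Traf2, an adaptor of IRE1 and of tumour necrosis factor receptors, rose by 2.40 ± 0.18 (SE, adjusted p = 4.42e-12). The genes of 2 of the sensors fell, Eif2ak3 (PERK) with a change of -1.74 ± 0.21 (SE, adjusted p = 3.45e-08) and Ern1 (IRE1) with -1.17 ± 0.22 (SE, adjusted p = 0.000139). The KO changes at 6 h were 2.30 ± 0.20 (SE, adjusted p = 2.36e-10), -1.83 ± 0.20 (SE, adjusted p = 1.34e-08) and -1.34 ± 0.19 (SE, adjusted p = 1.53e-06). Ern1 had turned above its 0 h level by 24 h in WT (0.52 ± 0.20 SE, adjusted p = 0.0257) and KO (0.48 ± 0.17 SE, adjusted p = 0.0164), calls lost without WT replicate 2 or 3 and with no filter in WT, and without KO replicate 2 or 4 in KO. With DESeq2 or its scaling the count of sensors higher at 6 h was 2 in each genotype. In WT it was also 2 without WT replicate 2 or 3 and with the replicate number as a block.

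Of 6 genes for integrated stress response kinases and phosphatase subunits, 4 were higher and 1 lower in WT at 6 h (median 1.07), beside 31% and 37.1% of all genes. Eif2ak2 (PKR), the kinase for double-stranded RNA and a known interferon target, rose by 3.51 ± 0.10 (SE, adjusted p = 4.09e-21). Ppp1r15b, a regulatory subunit that directs phosphatase to eIF2 alpha, rose by 2.20 ± 0.07 (SE, adjusted p = 1.56e-19), while Eif2ak4 (GCN2), the amino acid sensor, fell, with a change of -1.94 ± 0.11 (SE, adjusted p = 1.06e-14). The same counts, 4 and 1, were found in KO, beside 28.7% and 36% of all genes.

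Of 20 ATF4 and CHOP targets, 19 were tested, and 8 were higher and 6 lower in WT at 6 h (median -0.16), and 9 were higher and 9 lower at 24 h. The shares of all genes were 31% and 37.1% at 6 h and 34.5% and 35.4% at 24 h. Nupr1, a stress-induced chromatin factor, rose by 3.71 ± 0.15 (SE, adjusted p = 6.87e-17), and Slc7a11, the cystine transporter subunit, by 1.80 ± 0.32 (SE, adjusted p = 9.13e-05). Sesn2 and Trib3, which are known to restrain growth signalling, fell, with changes of -1.22 ± 0.21 (SE, adjusted p = 1.06e-05) and -0.96 ± 0.32 (SE, adjusted p = 0.011). At 12 h both were above their 0 h level in WT, Sesn2 by 1.05 ± 0.16 (SE, adjusted p = 2.29e-06) and Trib3 by 0.92 ± 0.26 (SE, adjusted p = 0.00285). The 6 h call of Trib3 was lost without WT replicate 3. In KO the 12 h values were 0.74 ± 0.24 (SE, adjusted p = 0.00972) for Sesn2 and 0.18 ± 0.23 (SE, adjusted p = 0.514) for Trib3. In WT, low values at 3 h and high values at 12 h were also the order seen for Ddit3.

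Of 22 other ER chaperones and folding enzymes, 20 were matched by symbol and tested, of which 6 were higher and 1 lower in WT at 6 h (31% and 37.1% of all genes, median 0.10), with Dnajc1 at 0.81 ± 0.07 (SE, adjusted p = 2.11e-10), Pdia3 at 0.34 ± 0.07 (SE, adjusted p = 0.000221) and Creld1 at -0.55 ± 0.15 (SE, adjusted p = 0.00223). Of 19 genes of ERAD, the process of Herpud1, 18 were tested, of which 11 were higher and 2 lower (31% and 37.1% of all genes, median 0.27). Syvn1, which encodes the HRD1 ligase that Herpud1 binds, rose by 0.81 ± 0.10 (SE, adjusted p = 9.12e-08) while Herpud1 fell, and Ube2j1, an ERAD ubiquitin-conjugating enzyme, rose by 0.55 ± 0.07 (SE, adjusted p = 7.57e-08). Edem3 and Ube2g2 fell, with changes of -0.25 ± 0.08 (SE, adjusted p = 0.00885) and -0.29 ± 0.12 (SE, adjusted p = 0.0334). Under DESeq2 and its scaling both calls were lost, and that of Ube2g2 also in 1 fit of all 40 libraries and without WT replicate 2, 3 or 4. In KO 10 ERAD genes were higher and 0 lower (28.7% and 36% of all genes), with Syvn1 at 0.67 ± 0.12 (SE, adjusted p = 3.81e-05). Of 23 genes of ER translocation and COPII traffic, 22 were tested, of which 11 were higher and 2 lower in WT (31% and 37.1% of all genes, median 0.20), led by Sec23b (1.22 ± 0.07 SE, adjusted p = 2.34e-14) and Sar1a (0.89 ± 0.07 SE, adjusted p = 5.1e-11), both parts of the COPII coat machinery, with Sec31a at -0.19 ± 0.07 (SE, adjusted p = 0.0204) and Sec24d at -0.20 ± 0.08 (SE, adjusted p = 0.0381), both of which lost their call under DESeq2, under its scaling and without WT replicate 2 or 4. The Sec31a call was also lost with no filter and without WT replicate 3, and the Sec24d call in 1 fit of all 40 libraries and without WT replicate 1. Against the list medians, the median of all genes at 6 h in WT was -0.09.

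**Figure D5:**
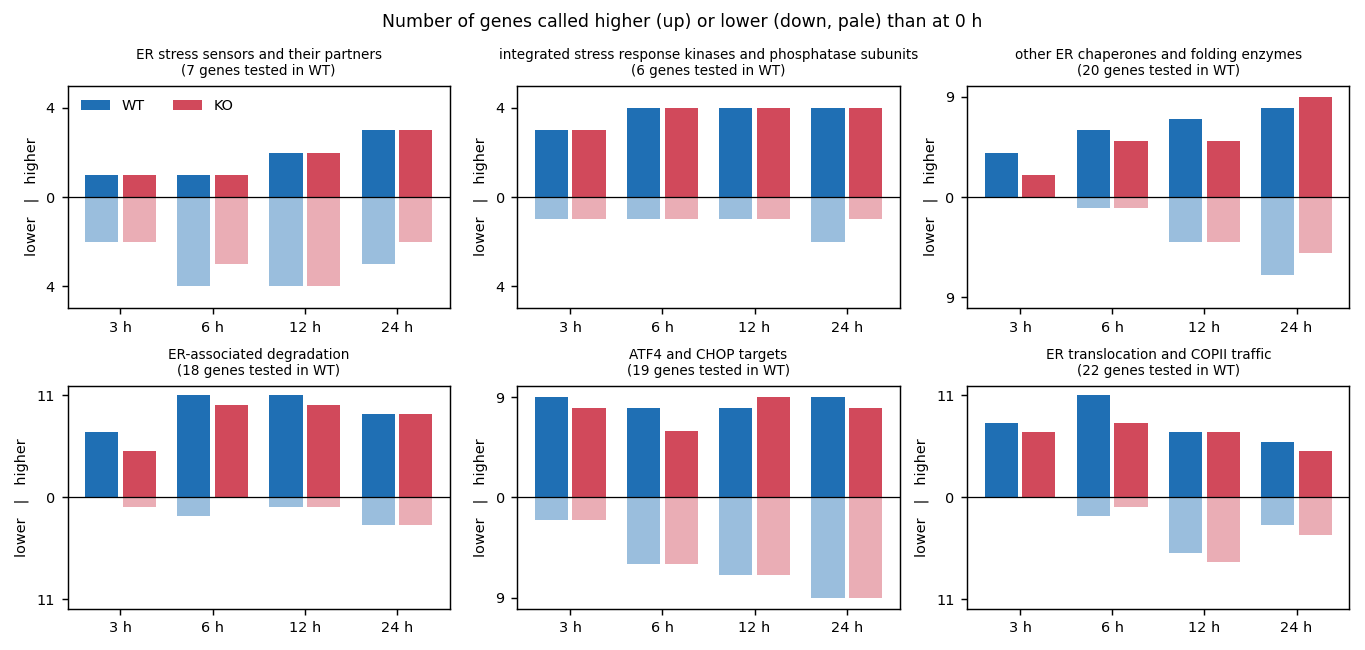
Number of genes of each pathway list called higher (upward bars) or lower (downward, pale bars) than at 0 h by edgeR at 3, 6, 12 and 24 h, WT in blue and KO in red. ERAD reaches 11 genes higher in WT at 6 h, and ATF4 and CHOP targets split into 9 higher and 9 lower in WT at 24 h.

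Between the genotypes, 1 gene of these lists was called outside 6 h, at 3 h, where 91 list genes were tested and 0.689% of all genes were called. Atf3, a stress-induced transcription factor that is also a CHOP partner, was at 347 ± 18.5 CPM over KO libraries against 257 ± 14.5 over WT libraries (SD, n = 4) at 3 h, a log2 difference of 0.43 ± 0.07 (SE, edgeR adjusted p = 0.00597). This call was lost without WT replicate 2, at 0.39 (edgeR adjusted p = 0.0532). The lists had no call at 0, 12 or 24 h. At 6 h Atf3 differed by 0.41 ± 0.08 (SE) and Ppp1r15b by 0.33 ± 0.08 (SE), given as descriptions. Atf3 was higher in KO at the times when Ddit3 differed by 0.22 ± 0.22 (SE) and -0.24 ± 0.15 (SE).

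Over the means of the 10 groups, the genes whose log2 CPM ran most like Herpud1 among 9785 genes were Hmgxb3 (Pearson r = 0.90), Fmnl1 (0.89), Pgap1 (0.89), Itsn1 (0.88) and Ascc2 (0.87). Among the 10 genes themselves, r was above 0 in 23 of 45 pairs, with a median of 0.020. It was highest for Ddit3 with Creld2 (0.90) and lowest for Ddit3 with Hsp90b1 (-0.95). Herpud1 was most like Dnajb9 (0.59) and least like Xbp1 (-0.74). These coefficients describe 10 group means that share libraries and time courses, and carry no test.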

How the data were processed

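RNA of 40 libraries (QuantSeq 3′ mRNA-Seq, FWD kit) was measured. The authors deposited their RSEM output, in which each Ensembl gene has an expected count, and all values are whole numbers. Per the submitters' processing notes, the build was GRCm39 and the tools included RSEM 1.3.3, STAR 2.7.10a, UMI-tools 1.1.2, cutadapt 3.7 and FastQC 0.11.9. The sources used here do not give their order, the annotation release or the strand setting. Symbols came from GENCODE vM21 (GRCm38) for 52029 of 57010 identifiers. Ddit3 had a second identifier, which held 0 counts.

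Groups followed the labels. Counts were rounded, which altered 0 values, and tested with edgeR 4.0.16 in R 4.3.3 (TMM scaling, filterByExpr with a minimum count of 10, robust quasi-likelihood fit, prior count 0.125, Benjamini-Hochberg adjustment over all genes, threshold 0.05). Genotypes were compared in fits of 8 libraries per time, times in fits of 20 libraries per genotype, and interactions in fits of 16. The SE is the log2 fold change divided by the square root of F. Replicate pairs differed beyond counting noise in all 60 cases (chi-square per degree of freedom 2.34 to 18.9). Alternatives were DESeq2 1.42.0, its median-ratio (RLE) scaling in edgeR, no filter, 1 fit of all libraries, a replicate block, and leaving out libraries. Scripts were tested on simulated data.

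The genes and lists were chosen with earlier results of these data known. Named list genes were the 2 highest and 2 lowest called at 6 h in WT with a mean of at least 5 CPM, genes called between genotypes outside 6 h, and the 5 most like Herpud1. Likeness used log2 CPM with 0.5 added. Motifs were searched in RefSeq promoters of GRCm38.p6.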

Additional observations from a re-analysis of the deposited data

Results flagged for a closer look

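Of 100 groups of 4 libraries, 3 held a library far from the other 3, with a gap above Dixon's critical value for 4 samples. Chance marks about 1 in 20 groups. All 3 were unstimulated libraries. Ddit3 was at 22.0 CPM in KO replicate 4, the others at 27.9 to 28.5 CPM. Atf4 was at 329 CPM in WT replicate 3, the others at 280.7 to 283 CPM. Pdia4 was at 48.8 CPM in KO replicate 1, the others at 34.1 to 36.1 CPM.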

How the results depend on the processing

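The calls of Hspa5 at all 4 times, Ddit3 at 3, 12 and 24 h, Atf4 at 12 h and Xbp1 at 6 h kept their direction and their side of the threshold in both genotypes under every alternative run, as did the WT call of Herpud1 at 6 h and the absence of calls among the 10 genes between KO and WT at 0, 3, 12 and 24 h. That WT call of Herpud1 is not independent of the choice of genes. The Herpud1 difference between KO and WT at 6 h lay between -0.84 and -0.67. Calls that ended under an alternative are given beside their results. With no filter on low counts 5 genes, in place of 3, were called in KO at 24 h. From 12 to 24 h in KO the count was 3 to 4 when 1 replicate was left out, 3 without KO replicate 2 or 3, in place of 5.

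Replicate numbers shared across times within a genotype correlated above 0.1 in 32 of 40 pairs in KO and 34 of 40 in WT, with 38 of 40 libraries closest to their own number, but between genotypes in 2 of 20 pairs, with 5 of 40 closest. Since some pairs in every comparison were at or below 0.1 and the labels name no shared animal, the numbers were not taken to pair the samples. Within a genotype, however, the median r was 0.19 in KO and 0.20 in WT, against -0.08 and -0.06 for other numbers. With the Xist levels, this leaves it likely that a number follows 1 animal over time. The reported tests between times do not model such sharing. With the replicate number as a block, 4 genes in place of 2 were called in WT at 3 h and 6 in place of 3 in KO at 24 h. The calls gained were Xbp1 and Sdf2l1 in WT at 3 h, Sdf2l1 in WT at 6, 12 and 24 h, Hsp90b1 in both genotypes and Xbp1 and Sdf2l1 in KO at 24 h, Pdia4 in KO at 3 and 6 h and Xbp1 in KO at 12 h, and no call against 0 h was lost. At 6 h the block called 2 sensors higher in WT in place of 1, 3 other chaperones lower in WT and 2 in KO in place of 1 each, and 4 genes of translocation and COPII traffic lower in WT and 3 in KO in place of 2 and 1.

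Values that changed sign were small and called in neither form, and the cause was not tested. Ddit3 in WT at 6 h was 0.062 with DESeq2, 0.063 with RLE scaling, 0.000457 with the replicate block and 0.00345 in 1 fit of all 40 libraries. Pdia4 in WT at 24 h was 0.037 with DESeq2 and RLE scaling, 0.00156 with the replicate block and 0.00245 in 1 fit. Atf4 in KO from 3 to 6 h was 0.012 with DESeq2 and RLE scaling, and Hsp90b1 in WT at 6 h was -0.0068 with no filter. Leaving out 1 replicate moved Herpud1 in WT at 3 h between -0.18 and 0.071, Ddit3 in WT at 6 h between -0.15 and 0.077, Pdia4 in WT at 12 h between -0.19 and 0.0038 and at 24 h between -0.0495 and 0.071, and Dnajb9 in WT at 24 h between -0.034 and 0.25. In KO it moved Dnajb9 at 12 h between -0.15 and 0.042, Creld2 at 12 h between -0.14 and 0.16, Pdia4 at 24 h between -0.33 and 0.062, and Atf4 from 3 to 6 h between -0.035 and 0.021. Trib3 in KO at 12 h moved between -0.11 and 0.41. The Herpud1 difference between KO and WT at 3 h moved between -0.10 and 0.079. Genes near 16 counts in a library limit what small changes can be seen.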
